A study of Mus musculus with 6 samples.

Results

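The oxysterol-binding protein family was followed here through 10 of its genes, Osbp, Osbpl1a, Osbpl2, Osbpl3, Osbpl5, Osbpl6, Osbpl7, Osbpl8, Osbpl9 and Osbpl11, taken by the gene name that the array's own annotation gives each probe. They were carried by 17 of the 41174 probes on the array that are not control spots, and 15 of those probes, for 9 genes, entered the test across 23584 probes because every array of 1 group or of both had them well above background. The family was chosen because its Osbpl3 and Osbpl7 signals stood out between the genotypes in these same arrays and because the 2 Osbpl7 probes gave unlike differences, so the genotype differences of the members are given as a description and are not independent evidence of an effect. The samples were livers of male SIRT1 LKO mice, in which SIRT1 is deleted in the liver, and of male Lox control mice (called Control below), all 10 weeks old, on a 95% C57BL/6 background, on chow with free access to food, and killed at 4 pm. SIRT1 is an NAD-dependent protein deacetylase. The sources used here name neither the promoter that drove the deletion nor the exons removed, and they call the controls only Lox. The mice were meant for a study of PPAR-alpha, a fatty acid-sensing nuclear receptor. Each group had 6 mice, the RNA of 2 mice was pooled for each array, and there were 3 arrays per group, so the replicate is a pool and single animals cannot be seen.

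Proteins of this family carry a lipid-binding domain that holds a single sterol or phospholipid, and most of them work where the endoplasmic reticulum lies close against another membrane. Many exchange their lipid for phosphatidylinositol 4-phosphate, a lipid made on the Golgi and plasma membrane and broken down on the endoplasmic reticulum, and this exchange drives transport against a gradient. Most members hold on to the endoplasmic reticulum through the VAP proteins, while others have a membrane anchor of their own. The liver makes, stores and secretes cholesterol and turns it into oxysterols and bile acids, which is the setting in which the family is usually studied there.

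The results turn on 4 probes, oligonucleotides of 60 bases for Osbpl3 and Osbpl7. The last 30 bases of each are shown so that the 2 probes of a gene can be told apart, with the letters AATAAA, which are the usual polyadenylation signal, in capitals and everything else in lower case.
Osbpl3 probe A_51_P196844: gtatatattttcttcagtaagtctctttaa
Osbpl3 probe A_52_P360308: gaagtcaagccaaaaatagaggtgagggct
Osbpl7 probe A_51_P511259: ctatgtgtctgtctctctcaggtttgggga
Osbpl7 probe A_52_P275354: acattccaagctccAATAAAgactgtccta
On the mm7 build, as the files give it, the Osbpl3 probe A_51_P196844 lies on the minus strand of chromosome 6 at 50256951 to 50257010 and was designed on the RefSeq mRNA of the gene. The Osbpl3 probe A_52_P360308 lies at 50254001 to 50254060 on the same strand, 2950 bp further towards the 3′ side, and was designed on a cDNA clone from aorta and vein that the array annotation calls unclassifiable. The Osbpl7 probe A_51_P511259 lies on the plus strand of chromosome 11 at 97175921 to 97175980, and A_52_P275354 lies 1956 bp downstream of it at 97177877 to 97177936. Both Osbpl7 probes were designed on predicted transcript variants of different number. The Osbpl7 probe A_52_P275354 was the 1 family probe of 17 that holds AATAAA on the sense strand, a string found in 4.78% of all 41174 probes. The Osbpl3 probe A_51_P196844 has a stop codon in all 3 forward frames, whereas A_52_P360308 and both Osbpl7 probes have at least 1 frame open over their 60 bases, as 78.3% of all probes do. The files do not say whether a probe lies in an exon, intron or UTR, and no probe sequence of the family occurs on a second probe of the array.

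Values below are log2 intensities of the Agilent processed signal with each array's 75th percentile subtracted, mean ± SD with n = 3 pools per group unless single pools are given, and a difference is SIRT1 LKO minus Control. The 75th percentile lay between 1005 and 1056 intensity units on 5 arrays and at 1289 on that of LKO pool 3, and 52.2% to 66.3% of probes were well above background. The 3 Control pools shared a slide, LKO pools 1 and 2 a second, and LKO pool 3 lay on another. Slide and genotype therefore cannot be told apart. Slides can be compared only within the LKO group, where LKO pool 3 was alone on its slide. For LKO pool 3 the deposited value table differed from the scanner file, its unscaled intensities agreeing within 1% for 0.853% of probes against 99.8% on the other arrays. The median ratio of table to scanner was 0.719 there, and a constant ratio is removed with the 75th percentile. The log2 values correlated at 0.982, so single probes differed beyond a constant ratio. The difference from the table is therefore given for the Osbpl3 and Osbpl7 probes and wherever it turned the sign or the size moved by over 1.5 times. Hepatocyte markers were well above background on 6 of 6 arrays for 5 of 5 genes on the array, with a summed linear signal of 1010 to 1319 times the 75th percentile in LKO pools and 1007 to 1197 times in Control pools. Sirt1 differed by -0.24 (SE 0.10, limma adjusted p = 0.243) at probe A_52_P358612 and by -0.02 at A_51_P141152, and neither checks the genotype labels because the deleted part is not known.

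In the fit across all probes, limma called 1 of the 15 tested family probes at an adjusted p under 0.05, against 0.0636% of all tested probes. That probe belongs to Osbpl3 and was lower in LKO livers, as 0.0594% of all tested probes were, and no family probe was called higher, beside 0.00424% of all. The LKO and Control pools did not overlap for 6 of the 15 family probes, with LKO above in 2 and below in 4, against 28.8% of all tested probes in either direction, 14.9% above and 13.9% below. The family probes had a median difference of -0.07 and a median absolute difference of 0.11, beside 0.02 and 0.19 for all tested probes. These counts were part of how the family was chosen and nothing is read from them.

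**Figure D1:**
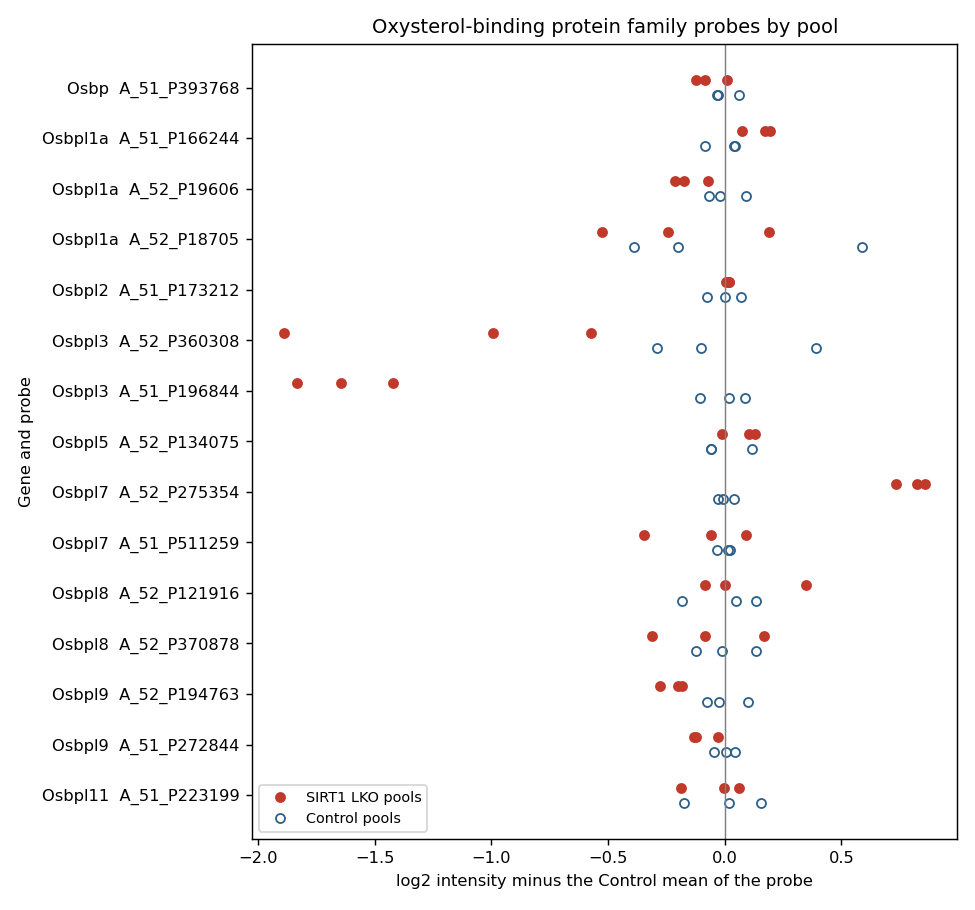
Each of the 15 tested family probes on a row, with the log2 intensity of each pool minus the Control mean of that probe on the horizontal axis; filled points are the 3 SIRT1 LKO pools and open points the 3 Control pools. The LKO pools of both Osbpl3 probes lie left of all Control pools, those of Osbpl7 probe A_52_P275354 lie right of them, and the other probes stay within 0.6 of their Control mean.

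Osbpl3 encodes ORP3, which in human cells binds the VAP protein VAPA and the small GTPase R-Ras and acts in cell adhesion. Its probe A_51_P196844 read -3.06, -3.25 and -2.84 in the LKO pools 1 to 3, against -1.39, -1.52 and -1.33 in the Control pools 1 to 3. All 3 LKO pools lay below all 3 Control pools, with a gap between the groups several times their spread. The means of this probe were -3.05 ± 0.21 in LKO livers and -1.41 ± 0.10 in Control livers. The difference was -1.64 (SE 0.13, 95% interval -1.95 to -1.32) or 3.11-fold. The limma adjusted p that helped choose the family was 0.0288, and the absolute difference stood at percentile 99.7 of all tested probes.

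The second Osbpl3 probe, A_52_P360308, read -4.97, -5.87 and -4.55 in LKO pools 1 to 3 and -4.27, -4.08 and -3.59 in Control pools 1 to 3. It was well above background in 2 of 3 LKO pools and 3 of 3 Control pools. The groups again did not overlap, and the difference was -1.15 (SE 0.35, 95% interval -2.00 to -0.31), which did not pass the threshold (limma adjusted p = 0.148). Agilent's own error for this spot was 12.2% to 27.7% of the signal, beside 10.1% to 11.4% for A_51_P196844. A_52_P360308 entered the test only through the Control group, where its signal was higher. The 2 Osbpl3 probes had differences of the same sign, and nothing is read from this. The gap between the 2 differences (0.48, SE 0.33) was not much larger than its error.

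Values from other slides and from the value table bear on the size of the Osbpl3 difference. In LKO pools 1 and 2, which shared a slide, A_51_P196844 differed from the Control mean by -1.74, and LKO pool 3 alone by -1.42. In the value table that pool read -3.53 in place of -2.84, and the difference became -1.87 (limma adjusted p = 0.0432). The call ended when any 1 of the 6 pools was left out, with limma adjusted p between 0.0526, without LKO pool 3, and 0.213, without LKO pool 1, while the difference stayed between -1.74 and -1.53. It also ended with the slide as a random block (-1.61, limma adjusted p = 0.164) and without the filter on dim probes (limma adjusted p = 0.256). The same held after normexp background correction with an offset of 50 intensity units, which moved the difference to -0.97 (limma adjusted p = 0.568). Such an offset by itself draws the log2 differences of dim probes towards 0. For A_52_P360308 the value table gave LKO pool 3 as -5.33 in place of -4.55, and the difference was -1.41 (limma adjusted p = 0.0612). After normexp A_52_P360308 stood at 0.02, so its direction was lost there, and the part of the offset in this was not tested.

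Liver samples can carry RNA of other cells, and in bulk RNA fewer cells of a type and less RNA per cell cannot be told apart. The summed signal of the pancreas markers was 0.348 to 0.426 in LKO pools and 0.446 to 0.472 in Control pools over the 5 genes of 7 on the array, so the sums did not overlap. Singly, the 3 tested genes, Cela1, Ctrb1 and Ins2, overlapped between the groups and none passed. Cpa1, at -5.27 in LKO livers and -5.70 in Control livers, ran the other way without being tested, and Pnlip was not well above background on any array. The 6 adipose markers summed to 5.16 to 5.78 in LKO pools and 4.35 to 5.81 in Control pools. In this list Fabp4, at 2.40 in LKO livers and 2.11 in Control livers, made up most of the sums and differed by 0.29. Cfd differed by -3.44 (limma adjusted p = 0.114), the most negative difference of all tested probes. Neither gene overlapped between the groups, and Cfd was well above background in only 2 of 3 LKO pools. Plin1 and Lep were not well above background on any array. Kupffer cell, lymphocyte, endothelial, stellate and cholangiocyte sums overlapped between the groups. The part of any of these cells in the Osbpl3 values was not tested.

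**Figure D2:**
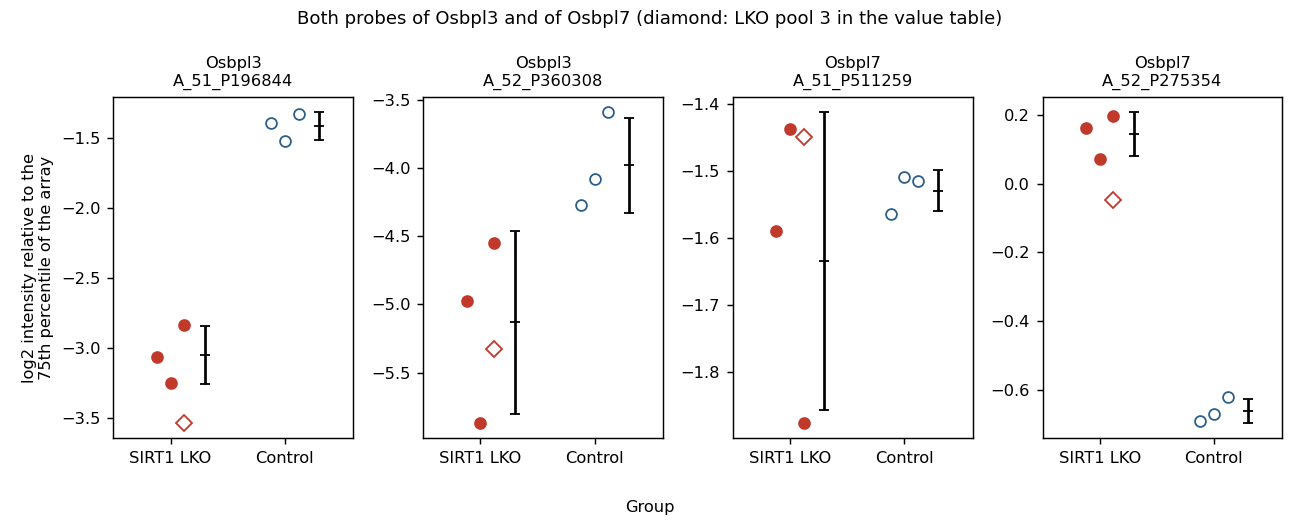
Log2 intensity minus each array's 75th percentile, on a scale of its own in each panel, for both probes of Osbpl3 and of Osbpl7, with the 3 SIRT1 LKO pools left of the 3 Control pools and the mean with SD beside each group; the open diamond is LKO pool 3 as the deposited value table gives it. Both Osbpl3 probes and Osbpl7 probe A_52_P275354 separate the groups, whereas Osbpl7 probe A_51_P511259 has LKO pools on either side of the Control pools.

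Osbpl7 and Osbpl6 encode ORP7 and ORP6, the closest relatives of ORP3 in the family. The Osbpl7 probe A_52_P275354 read 0.16, 0.07 and 0.20 in LKO pools 1 to 3, against -0.69, -0.67 and -0.62 in Control pools 1 to 3. All LKO pools lay above all Control pools, with little spread within either group. The means were 0.14 ± 0.06 in LKO livers and -0.66 ± 0.04 in Control livers, a difference of 0.81 (SE 0.09, 95% interval 0.59 to 1.02) or 1.75-fold. Over all probes it did not pass the threshold (limma adjusted p = 0.057), and with 1 probe per gene it did (limma adjusted p = 0.0492). It was also past the threshold with the filter on all 6 arrays, with an intensity trend and in the value table, and not in the other 14 of the 18 ways of processing, with limma adjusted p of 0.321 with the slide as a random block, 0.256 without the filter, 0.554 after normexp and 0.0527 to 0.213 with 1 pool left out. In the value table LKO pool 3 read -0.05 and the difference was 0.72 (limma adjusted p = 0.0433). Over all 18 ways of processing the data the difference stayed between 0.69 and 0.84.

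The other Osbpl7 probe, A_51_P511259, did not show this. It read -1.59, -1.44 and -1.88 in LKO pools 1 to 3 and -1.56, -1.51 and -1.52 in Control pools 1 to 3, so LKO pool 2 lay above the Control pools and LKO pools 1 and 3 below them. The difference was -0.11 (SE 0.13, 95% interval -0.42 to 0.21, limma adjusted p = 0.673). LKO pool 3 set its sign, since the value table gave that pool -1.45 and the difference was 0.04 there and 0.02 without the pool. The genotype differences of the 2 Osbpl7 probes lay 0.91 apart (SE 0.16 from the spread of the within-array gap between pools). Among the 5241 genes with 2 or more tested probes, the median distance between the highest and lowest difference of a gene was 0.23, 224 genes were at least as far apart as Osbpl7, and 42.1% had differences of both signs. Osbpl7 therefore stood at percentile 95.7 of that distance and Osbpl3 at percentile 79.8. The unlike Osbpl7 probes helped choose the family, so this rank is a description and nothing is read from it.

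Osbpl6 had 1 probe, whose coordinates span 1385 bp of the genome for 60 bases of sequence. It was not well above background on any of the 6 arrays, with values of -7.88, -7.01 and -7.63 in LKO pools and -7.75, -6.76 and -7.37 in Control pools. No genotype difference was detectable at this signal.

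Osbp, the founding member, exchanges cholesterol for phosphatidylinositol 4-phosphate between the endoplasmic reticulum and the Golgi. Its probe A_51_P393768 read -0.30, -0.26 and -0.16 in LKO pools 1 to 3 and -0.21, -0.20 and -0.11 in Control pools 1 to 3. The groups overlapped, with a difference of -0.07 (SE 0.09, 95% interval -0.28 to 0.15), and of -0.16 in the value table.

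Osbpl1a and Osbpl2 encode ORP1 and ORP2. ORP1 works on late endosomes, where its long form acts with RAB7, and ORP2 moves cholesterol towards the plasma membrane. The Osbpl1a probe A_51_P166244 read 6.24, 6.22 and 6.12 in LKO pools and 6.09, 5.96 and 6.08 in Control pools. The LKO pools lay just above the Control pools, by 0.15 on average (SE 0.09). The second Osbpl1a probe, A_52_P19606, went the other way, at 2.83, 2.80 and 2.94 in LKO pools and 3.10, 2.94 and 2.99 in Control pools, a difference of -0.15 (SE 0.10), and of -0.25 in the value table. Both are separations of groups that lie close together, and neither passed the threshold (limma adjusted p = 0.401 and 0.392). The remaining Osbpl1a probe, A_52_P18705, differed by -0.19 with an SE of 0.30, and by -0.10 in the value table. Osbpl2 probe A_51_P173212 had a difference of 0.01 (SE 0.09, 95% interval -0.20 to 0.23), at 3.28 ± 0.01 in LKO livers and 3.26 ± 0.07 in Control livers, and the value table gave -0.02.

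Osbpl5 and Osbpl8 encode ORP5 and ORP8, which are anchored in the endoplasmic reticulum by a membrane segment and exchange phosphatidylserine for phosphatidylinositol 4-phosphate at the plasma membrane. Osbpl5 was 1.59 ± 0.07 in LKO livers and 1.52 ± 0.10 in Control livers, with overlapping pools and a difference of 0.07 (SE 0.10, 95% interval -0.17 to 0.31), which was -0.04 in the value table. The Osbpl8 probe A_52_P370878 was -1.18 ± 0.24 in LKO livers and -1.10 ± 0.13 in Control livers, and A_52_P121916 was -2.00 ± 0.23 in LKO livers and -2.08 ± 0.16 in Control livers. Their differences of -0.07 and 0.09 had SEs of 0.15 each, so the opposite signs lie within the error, and the value table gave 0.03 for A_52_P121916. The last Osbpl8 probe, designed on a neonatal skin cDNA, was not well above background on any array.

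Osbpl9 and Osbpl11 encode ORP9 and ORP11, which in human cells act at the Golgi and pass phosphatidylserine and phosphatidylinositol 4-phosphate between membranes. The Osbpl9 probe A_52_P194763 read 1.75, 1.66 and 1.74 in LKO pools and 2.04, 1.86 and 1.91 in Control pools. All LKO pools lay below all Control pools, with a difference of -0.22 (SE 0.09, 95% interval -0.45 to 0.01, limma adjusted p = 0.245). This difference was negative in every processing run, from -0.34 to -0.17. The other Osbpl9 probe, A_51_P272844, was 4.26 ± 0.06 in LKO livers and 4.35 ± 0.04 in Control livers, with overlapping pools and a difference of -0.09 (SE 0.09). Osbpl11 differed by -0.04 (SE 0.13, 95% interval -0.34 to 0.26). Outside Osbpl3 and Osbpl7, then, the 11 tested probes had differences between -0.22 and 0.15, with a median SD within a group of 0.07 in LKO livers and 0.09 in Control livers, where all tested probes had 0.17 and 0.13.

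Since probes of the same gene gave unlike differences, they were placed along the gene. In 4 of the 5 family genes with at least 2 tested probes the probe nearest the 3′ side had the more positive difference than the one farthest from it. That was Osbpl7 with 0.81 against -0.11, Osbpl3 with -1.15 against -1.64, Osbpl1a with 0.15 against -0.19 over 159116 bp, and Osbpl9 with -0.09 against -0.22, while Osbpl8 had -0.07 against 0.09. Across 5128 genes of the array treated the same way, the 3′-most probe had the more positive difference in 53.6%, by a median of 0.02. The median gap was 0.04 in LKO pool 1, 0.04 in LKO pool 2 and 0.00 in LKO pool 3. Between the probes at either end, the gaps were 0.91 (SE 0.16) in Osbpl7, 0.13 (SE 0.05) in Osbpl9 and 0.34 (SE 0.34) in Osbpl1a. They were 0.48 (SE 0.33) in Osbpl3 and -0.16 (SE 0.12) in Osbpl8. The Osbpl1a probes A_51_P166244 and A_52_P19606, 7265 bp apart, had a gap of 0.30 with an SE of 0.08. Each SE rests on 3 pools per group, no gap was tested, and that of Osbpl7 helped choose the family.

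**Figure D3:**
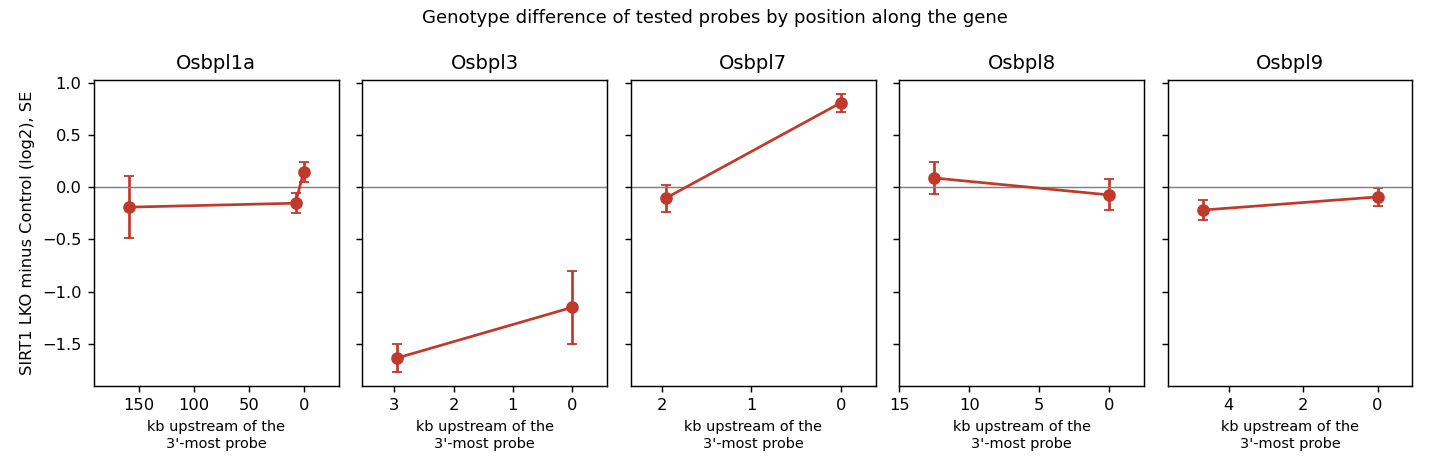
SIRT1 LKO minus Control difference in log2 intensity (points, with SE as bars) for the tested probes of the 5 family genes that have more than 1, against the distance in kb upstream of the 3′-most probe. Osbpl7 goes above 0 only at its 3′-most probe, and both Osbpl3 probes lie below -1.

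The proteins beside which the family works were read from 4 lists, chosen from general knowledge with earlier results of these arrays known. Of the 49 genes with a tested probe, limma called 0 over all probes, 14 had an unadjusted p under 0.05, and the median difference was 0.04 beside 0.02 for all tested probes. At an unadjusted p under 0.05 stood 21.2% of all tested probes. Each gene is counted as higher or lower by its brightest tested probe alone. Over all 16507 genes, with 1 probe each, 8837 were higher and 7670 lower.

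Among the anchors and tethers that hold membranes together, 5 of 8 were higher and 3 lower in LKO livers (median 0.16). Esyt2, an extended synaptotagmin that ties the endoplasmic reticulum to the plasma membrane, read -2.75, -2.91 and -3.27 in LKO pools and -3.56, -3.51 and -3.74 in Control pools, a difference of 0.62 (SE 0.16, limma adjusted p = 0.117), and its second probe differed by 0.61. Mospd2, another endoplasmic reticulum anchor with a VAP-like domain, differed by 0.37 (limma adjusted p = 0.169), by 0.18 in the value table, and by 0.13 (SE 0.12) at its second probe. Vapa, the anchor of Osbp and ORP3, differed by 0.22 (limma adjusted p = 0.333) and by 0.24 at its second probe. Vapb, singled out after its values were seen, read 5.92, 5.92 and 5.57 in LKO pools, against 1.93, 5.66 and 5.73 in Control pools, so its difference of 1.36 (SE 0.99) came from Control pool 1, and its other probes differed by 0.47 and 0.15.

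In phosphoinositide and phosphatidylserine metabolism 6 of 10 genes were higher and 4 lower (median 0.04). Pi4ka, the kinase that makes phosphatidylinositol 4-phosphate at the plasma membrane, read 4.53, 4.60 and 4.61 in LKO pools and 4.12, 4.20 and 4.29 in Control pools. The LKO pools all lay above, by 0.37 on average (SE 0.09, limma adjusted p = 0.115), and the second probe differed by 0.27 (SE 0.13). Pi4k2b, a type II kinase of the same lipid, differed by 0.56 (SE 0.15, limma adjusted p = 0.125) and by 0.82 at its other probe. Ptdss1, a phosphatidylserine synthase, differed by -0.38 (SE 0.14, limma adjusted p = 0.191).

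Of 18 other lipid transfer genes 13 were higher and 5 lower (median 0.15), and for some genes the direction depended on the probe. Pitpnm2 counted as higher at 0.20, with its other tested probes at -0.70 and -0.57. Pitpnc1 counted as higher at 0.46, with the others at -0.29, -0.55, -0.65 and 1.57. Pitpnb counted as higher at 0.30, with the others at -0.20 and -0.05. Stard4, a soluble sterol carrier, differed by -0.53 (SE 0.17, limma adjusted p = 0.160) at one probe and by 0.32 and 0.19 at the others (SE 0.19 each), both within 2 SE of 0. Pitpna, a phosphatidylinositol transfer protein, differed by 0.34 (SE 0.11, limma adjusted p = 0.161) at one probe and by 0.06 (SE 0.09) at the other. Gramd1a, which takes cholesterol from the plasma membrane, differed by 0.25 (SE 0.09, limma adjusted p = 0.185).

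In the oxysterol list 4 of 13 genes were higher and 9 lower (median -0.13). Cyp7b1, an oxysterol hydroxylase of the liver, read 6.28, 6.35 and 5.82 in LKO pools and 6.99, 6.40 and 6.69 in Control pools, a difference of -0.54 (SE 0.20, limma adjusted p = 0.203). Cyp46a1, a cholesterol hydroxylase known mainly from neurons, differed by -0.25 (limma adjusted p = 0.212) and by -0.08 in the value table. Srebf2, the regulator of cholesterol synthesis, differed by 0.31 (limma adjusted p = 0.191) and by 0.20 in the value table. The other Srebf2 probes differed by -0.04, 0.36 and 0.09. Ch25h, another cholesterol hydroxylase, was not well above background on any array.

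**Figure D4:**
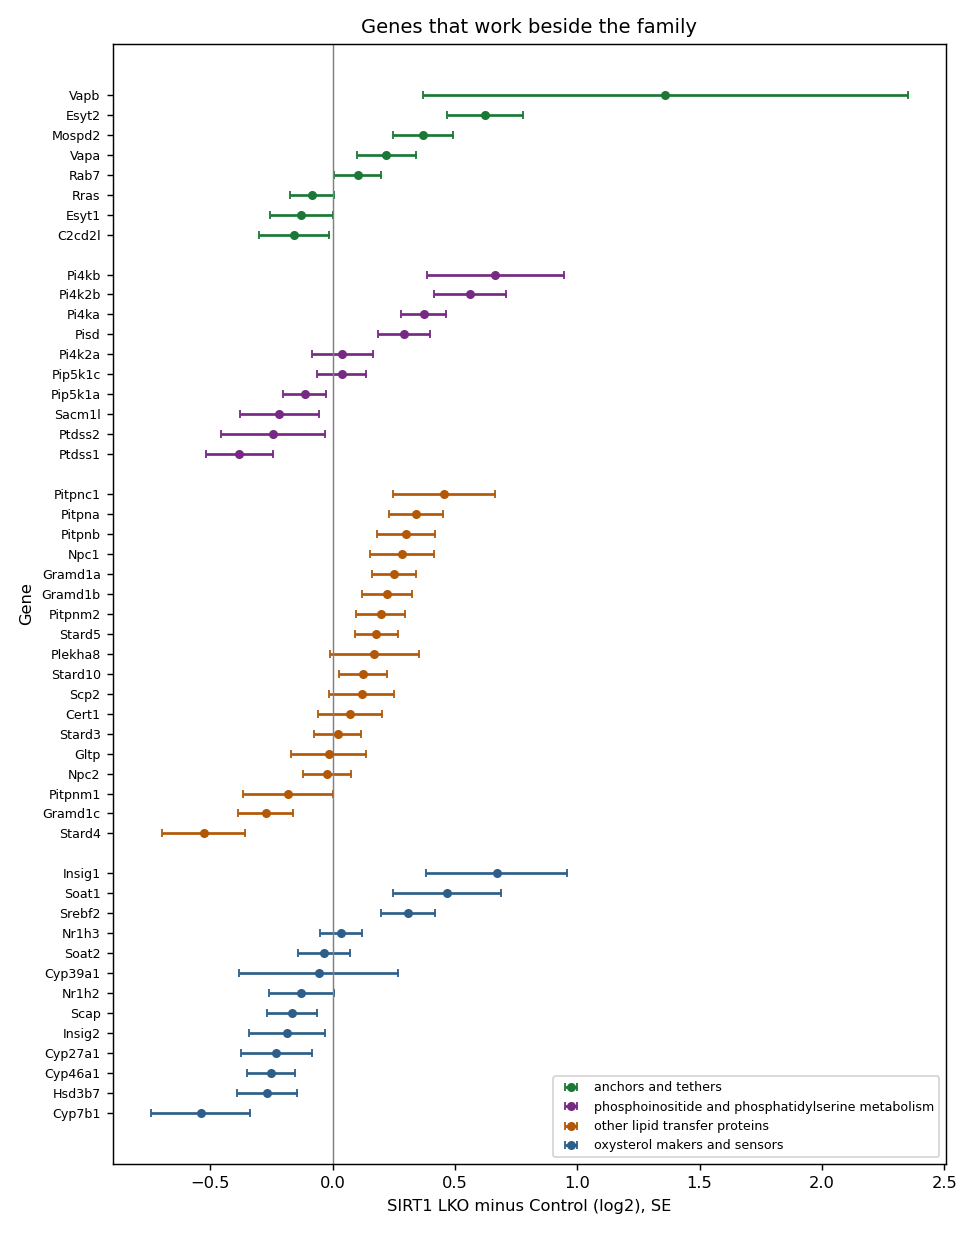
SIRT1 LKO minus Control difference in log2 intensity, with SE as bars, for the 49 tested genes of the 4 lists, 1 probe per gene and sorted within each list. None passed the threshold over all probes, and the wide bar of Vapb comes with the low value of Control pool 1.

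The probes whose values over the 6 arrays followed Osbpl3 probe A_51_P196844 most closely were those of Pex11a (Pearson r = 0.997), Usp3 (0.995), Vnn1 (0.995), Arl5b (0.993) and Dock8 (0.992). Pex11a is a peroxisome division protein and Vnn1 a pantetheinase. Their own differences were -0.68, -0.32, -1.08, -0.63 and -0.26 in that order. The probes closest to Osbpl7 probe A_52_P275354 were those of Asrgl1 (0.997), Dnajb6 (0.992), Tmco3 (0.990), Atrn (0.990) and Slc50a1 (0.990), with differences of 0.24, 0.69, 0.48, 0.30 and 0.61. These correlations rest on 6 arrays in 2 groups that share slides by group, and 247 probes for Osbpl3 and 257 for Osbpl7 exceeded 0.95, so they describe the arrays only.

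**Figure D5:**
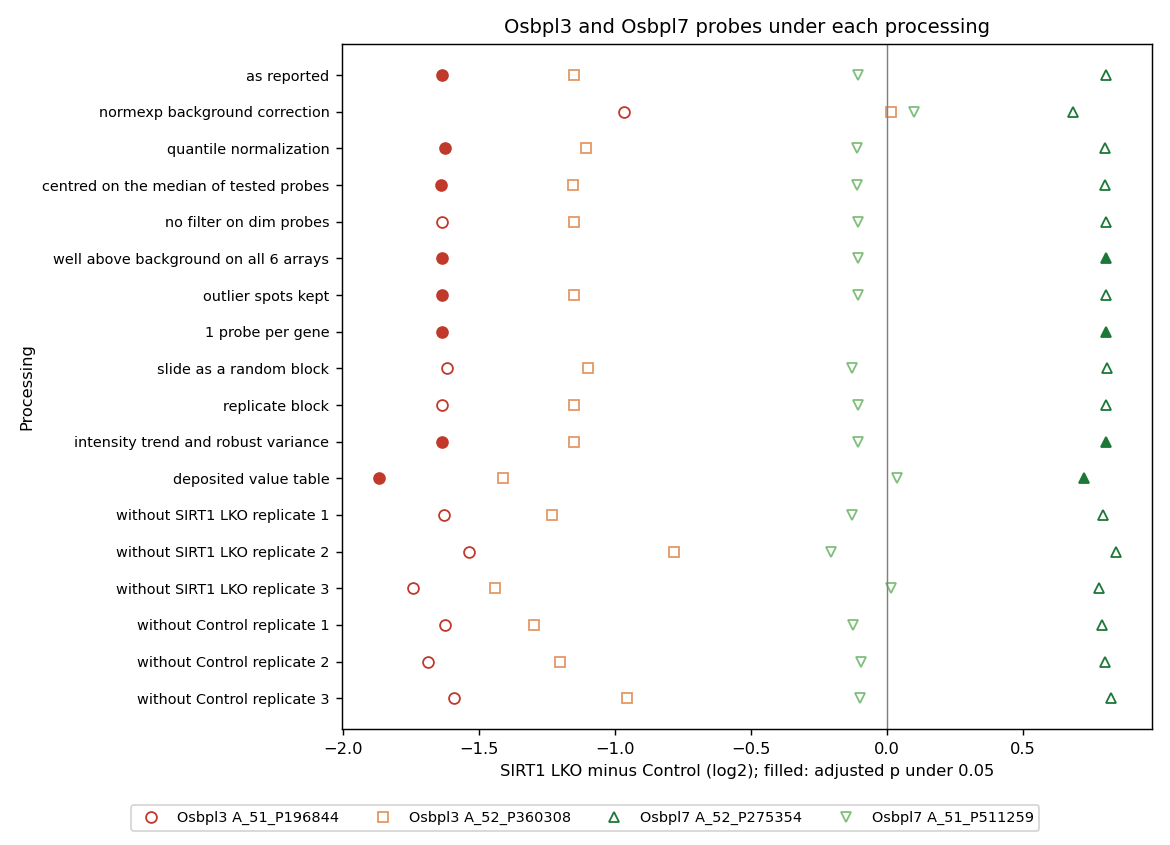
SIRT1 LKO minus Control difference in log2 intensity for both probes of Osbpl3 and of Osbpl7 under each of 18 ways of processing the data, 1 per row; a filled symbol has a limma adjusted p under 0.05, and a probe left out by a filter has no symbol. Osbpl3 probe A_51_P196844 is filled in 8 rows and lies between -1.87 and -0.97, and Osbpl7 probe A_52_P275354 is filled in 4 rows and lies between 0.69 and 0.84.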

How the data were processed

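The members and the gene lists were chosen with earlier results of these arrays known. Liver RNA (500 ng per pool) was labelled with Cy3 and hybridised to 1-colour arrays, per the labels. Per the submitters' processing notes, Feature Extraction 9.5 (Agilent) made the scanner files, and per the file headers their spot intensity has the background subtracted and a spatial trend removed, beside deposited flags of 0 or 1. The deposited value table holds linear intensity that, per the labels, came from Rosetta Resolver's error model; the sources used here do not explain its values for LKO pool 3. Here, outlier spots were set missing, spots of a probe averaged after log2, and the 75th percentile of each array subtracted. Each probe was fitted alone with limma 3.58.1 (lmFit, eBayes; R 4.3.3), two-sided, Benjamini-Hochberg over 23584 probes. Nothing says that pools of a group came from separate experiments, so p-values measure the spread between pools, and the number of arrays limits the precision. Partner genes were named through RefSeq accessions (assembly GRCm38.p6; 22951 of 41174 probes matched) and represented by their brightest tested probe. All family probes were named, per list the 3 genes with the smallest p, and the 5 genes best correlated with the Osbpl3 and Osbpl7 probe of highest mean. The fit was checked on simulated data. Alternatives covered background correction (normexp with an offset of 50 intensity units), normalization, the filter, outlier spots and 1 probe per gene. They also covered blocks for slide and replicate number, the variance model, the value table and each pool left out.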

Additional observations from a re-analysis of the deposited data

How the results depend on the processing

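The count over all probes was 15 in limma. It was 11 after centring on the median of tested probes and 11 with outlier spots kept, 17 after quantile normalization, 24 with 1 probe per gene, 49 with only probes well above background on all 6 arrays, 91 with an intensity trend and robust variance, and 308 with the deposited value table. It was 0 after normexp, without a filter on dim probes and with the slide as a random block (1991, 6859 and 2632 probes at an unadjusted p under 0.05), and 0 to 3 with 1 pool left out (3288 to 7200). The family count of 1 became 2, with Osbpl7 added, for probes above background on all 6 arrays, with 1 probe per gene, with the trend and with the value table, and 0 after normexp, without the filter, with the slide block and with any 1 pool left out (2 to 3 family probes at an unadjusted p under 0.05 in limma). The count of partner genes stayed at 0 in all 17 alternatives (3 to 20 at an unadjusted p under 0.05). Normexp moved the median difference of all tested probes to 0.13, against 0.02, and gave 6 of 15 family probes the other sign, as the value table did for 3 probes. The causes were not tested.

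With the replicate block, 0 probes and 0 family probes passed in limma (4366 and 3 at an unadjusted p under 0.05), and the partner count was 0. The numbers share no stated source, and deviations of same-numbered pools correlated at 0.01, -0.04 and -0.09, so the pools are not treated as pairs.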

Other observations

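Osbpl10 and Osbp2, relatives outside the 10 genes above, were also on the array. The Osbpl10 probe A_52_P423276, designed on a pancreas islet cDNA, read -3.46, -3.44 and -3.65 in LKO pools 1 to 3 and -2.56, -2.87 and -2.71 in Control pools 1 to 3, with no overlap and a difference of -0.80 (limma adjusted p = 0.0751). The second tested Osbpl10 probe, A_51_P461108, differed by 0.01, and the remaining one was not tested. The tested Osbp2 probe differed by -0.13 (limma adjusted p = 0.746). These values were singled out after they were seen.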
